A study of Mus musculus with 12 samples.

Results

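The Socs family comprises 8 genes, Socs1 to Socs7 and Cish, of the 55450 genes, 21951 of them protein-coding, in the GENCODE M21 annotation of the mouse genome. It was followed through 5 lists of Stat3 binding summits, a summit being the single base at which a peak of Stat3-bound DNA fragments is highest. For each gene, every summit within 50 kb of an annotated start site of any of its transcripts was collected, and 11 of the 2136 summits in the 5 lists met this rule. Stat3 binding was measured by ChIP-seq, in which DNA cross-linked to a protein is precipitated with an antibody and sequenced. The cells were immortalised mouse embryonic fibroblasts (MEFs) from Stat3 fl/fl embryos, from which Stat3 was deleted by transduced Cre. They then expressed wild-type Stat3 (-/-WT) or Stat3-C3S (-/-C3S), in which cysteines are substituted, from a viral vector together with GFP. Both lines were polyclonal populations sorted for GFP, so that Stat3 came from a transduced vector and not from its own gene, and both were kept overnight in low serum before stimulation.

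There were 5 groups of 2 ChIP replicates each. The -/-WT MEFs were left without stimulation (basal), given 10 ng/ml of the cytokine LIF for 45 min, or exposed to hydrogen peroxide for 1 h. The -/-C3S MEFs were either left without stimulation or exposed to peroxide for 1 h. The sample labels give the peroxide dose as 100 mM, whereas the text of the study gives it in µM. No -/-C3S MEFs treated with LIF are among the samples. Both replicates of a group were combined before peaks were called, so that each group is 1 list of summits and no value below has a replicate error. For -/-WT MEFs there were 230 basal, 1088 LIF and 450 peroxide summits, and for -/-C3S MEFs 145 basal and 223 peroxide summits. Each summit carries a score, which was used here to rank summits within a list and not to compare lists. The lists hold no read depth, and the study states more unique reads for the LIF libraries than for the others. How far depth sets the difference in list length was not tested, and a gene without a summit has no called peak, which is not the same as no binding.

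Suppressors of cytokine signalling (Socs proteins) act as feedback inhibitors. A cytokine such as LIF activates receptor-bound Jak kinases, the kinases phosphorylate Stat3, and Stat3 dimers bind the palindromic Sis-inducible element (SIE), TTCCNGGAA. Each Socs protein has an SH2 domain, which binds phosphorylated tyrosines, and a SOCS box, which recruits a ubiquitin ligase, and Socs1 and Socs3 also inhibit Jak kinases directly. Socs3 is the member best known as a target of Stat3 downstream of the gp130 receptors used by LIF, whereas Cish and Socs2 are best known as targets of Stat5, a factor that binds the same type of palindrome.

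In the LIF list, 4 of the 8 genes had a summit within 50 kb of a start site (50%), namely Socs1, Socs2, Socs3 and Cish. The 8 genes are a whole family chosen with earlier results known, so this share is a description and not an estimate. Of all protein-coding genes, 7.38% had one in this list, and of all annotated genes 5.53%. The same 4 genes had a summit in the promoter window, which runs from 5 kb upstream to 0.5 kb downstream of a start site, compared with 1.62% of protein-coding genes. These 4 include both members that inhibit Jak kinases directly. The genes of the remaining members, Socs4, Socs5, Socs6 and Socs7, had no LIF summit in either window.

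None of the 8 genes had a summit within 50 kb, or in the promoter window, in the other 4 lists (0 of 8 in each). The share of protein-coding genes with a summit within 50 kb was 0.615% (basal) and 1.15% (peroxide) in the lists of -/-WT MEFs, and 0.41% (basal) and 0.574% (peroxide) in those of -/-C3S MEFs. For the promoter window these shares were 0.0273%, 0.0456%, 0.0456% and 0.0182% in the same order. Over all annotated genes the shares within 50 kb ranged from 0.449 to 1.37%. Beside shares this low, counts of 0 of 8 do not set the family apart from other genes. From read tracks at canonical targets, Socs3 among those shown, the study describes basal Stat3 binding in -/-WT MEFs that fell after peroxide. No summit near Socs3 is called in either of these lists.

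The distances from each gene to its nearest summit, on which the 50 kb rule rests, are given as a description. Their ranges and medians were not set against those of other genes, and the lists differ in length. In the LIF list this distance ranged from 38 bp at Cish to 8.50 Mb at Socs6, with a median of 0.0275 Mb over the 8 genes. The medians of the other -/-WT lists were 5.32 Mb (basal) and 3.77 Mb (peroxide), and those of the -/-C3S lists were 5.94 Mb (basal) and 9.36 Mb (peroxide). Across these 4 lists the summit closest to any member was a -/-C3S peroxide summit 481 kb upstream of Socs6. Socs6 was also the only member whose nearest summit was not in the LIF list. None of the 11 summits of the family lay within 200 bp of a summit of another list.

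**Figure D1:**
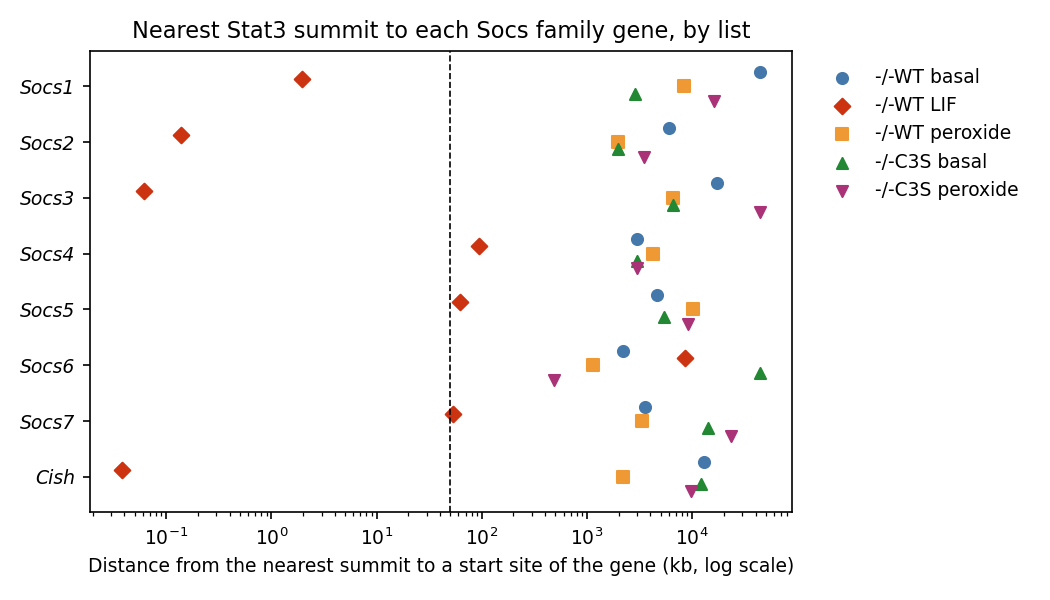
The horizontal axis gives the distance in kb (log scale) from the nearest summit of each list to a start site of each Socs family gene, with 1 symbol per list and the dashed line at 50 kb. LIF symbols lie left of the line for Socs1, Socs2, Socs3 and Cish, and no symbol of another list lies closer than 481 kb.

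Socs3 (ENSMUSG00000053113, chromosome 11, 117966079 to 117970047, minus strand of GRCm38, the build also called mm10) encodes the inhibitor that binds both gp130 and the Jak kinase attached to it. It had 8 of the 11 summits. Its highest-scoring summit, at 117969389, ranked 47 of 1088 with a score of 34.8, so that 4.23% of the LIF list scored higher. This summit lay in an exon of a non-coding Socs3 transcript, 62 bp downstream of the start site of that transcript, and 23 bp upstream of the Socs3 start site in RefSeq. The window of 80 bp either side was rich in G and C (78.9% of bases).

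The remaining 7 Socs3 summits formed an array on both sides of the gene, with 72.0 kb between the first and the last. Upstream, a summit of rank 200 (score 18.1) lay at 117975767, 5.72 kb from a start site, and one of rank 1083 (score 2.01) lay at 117995491, 25.4 kb away. Downstream, past the 3′ end of the gene, the summits lay 5.66 kb (117963524), 6.86 kb (117962330), 19.7 kb (117949514), 36.7 kb (117932453) and 45.7 kb (117923524) from a start site. The last of these is the family's summit just inside the 50 kb limit. Their ranks were 992, 421, 129, 478 and 918, with scores of 3.84, 11.4, 22.6, 10.4 and 4.78. The summit 19.7 kb downstream was thus second in rank to the promoter summit, and scores did not fall steadily with distance. Gaps between neighbouring summits ran from 1.19 to 19.7 kb.

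Distance alone does not assign these summits to Socs3. The nearest annotated start site belonged to Socs3 for 5 of the 8, to the predicted gene Gm11726 for the 2 farthest downstream, and to Pgs1, which encodes an enzyme of cardiolipin synthesis, for the summit 25.4 kb upstream, which lies in a Pgs1 intron. Among protein-coding genes alone, Socs3 was nearest to 7 of the 8. Of the 21951 protein-coding genes, 1.2% had at least 2 LIF summits within 50 kb and 2 genes (0.00911%) had 8, Socs3 and Stk11, the latter named after its value was seen. Neighbouring genes share summits in such counts, and Pgs1 had 6.

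**Figure D2:**
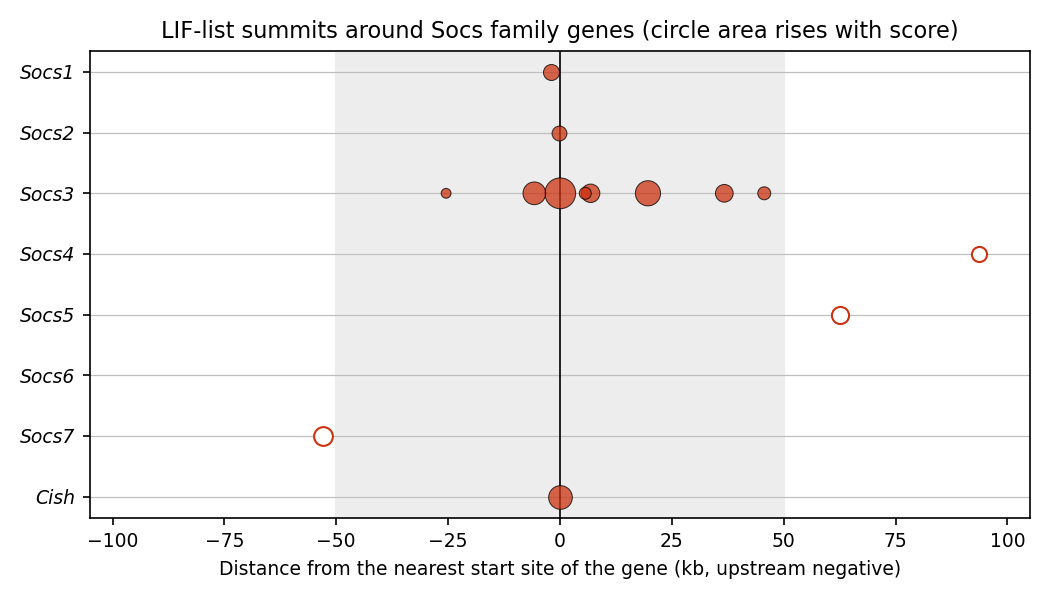
The horizontal axis gives the distance in kb of LIF summits from the nearest start site of each gene, with upstream negative, and circle area rises with score. Filled circles lie within 50 kb (shaded), open circles are the nearest summits of Socs4, Socs5 and Socs7 outside it, and the nearest summit to Socs6 is beyond the axis. Socs3 has 8 circles from 25.4 kb upstream to 45.7 kb downstream.

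The sequences under 5 of the 8 Socs3 summits are shown because they hold sites of different quality at different positions, and the other 3, each with 1 SIE-like site, are described after them. They are given 5′ to 3′ in the direction of the gene (minus strand of GRCm38) as 80 bp either side of the summit, and at the promoter as 30 bases around the site closest to the summit. Capitals mark an SIE with at most 1 mismatch to TTCCNGGAA or a site of the AP-1 factor, TGANTCA, with both strands searched. No site of one of these motifs overlapped a site of the other.
Socs3, promoter (chr11:117969433-117969462): ggaggggccgcTGCCAGGAAcgctcggcca
Socs3, 5.72 kb upstream (chr11:117975687-117975847): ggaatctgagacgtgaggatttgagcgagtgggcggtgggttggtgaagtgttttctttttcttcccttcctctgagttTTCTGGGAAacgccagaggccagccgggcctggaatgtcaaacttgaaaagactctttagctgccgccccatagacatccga
Socs3, 25.4 kb upstream (chr11:117995411-117995571): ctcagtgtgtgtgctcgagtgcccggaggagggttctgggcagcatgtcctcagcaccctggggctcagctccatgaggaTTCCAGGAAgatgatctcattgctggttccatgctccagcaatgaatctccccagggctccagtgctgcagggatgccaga
Socs3, 19.7 kb downstream (chr11:117949434-117949594): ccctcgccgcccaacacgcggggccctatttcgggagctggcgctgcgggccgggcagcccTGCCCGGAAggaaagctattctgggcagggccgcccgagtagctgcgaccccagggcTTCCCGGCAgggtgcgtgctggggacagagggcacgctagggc
Socs3, 36.7 kb downstream (chr11:117932373-117932533): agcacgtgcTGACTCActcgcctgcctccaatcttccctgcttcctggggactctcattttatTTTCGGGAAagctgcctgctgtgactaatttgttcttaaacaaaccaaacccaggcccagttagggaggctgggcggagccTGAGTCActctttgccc

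All 8 Socs3 windows held an SIE with at most 1 mismatch, which 66.6% of all LIF windows do. Of the 8, the one with the lowest score and rank was the one with a consensus SIE: TTCCAGGAA, 4 bp from the summit in the Pgs1 intron. At the promoter the site in the window was TGCCAGGAA, 58 bp from the summit at 117969443 to 117969451. The window 5.72 kb upstream held TTCTGGGAA, centred 3 bp from its summit, and the window 19.7 kb downstream held TGCCCGGAA at 15 bp and TTCCCGGCA at 42 bp. Of the windows not shown, that 5.66 kb downstream held TGCCAGGAA at 17 bp, that 6.86 kb downstream TTCCCAGAA at 32 bp and that 45.7 kb downstream TTCCAGTAA at 10 bp. AP-1 sites occurred at 1 of the 11 summits of the family, that 36.7 kb downstream of Socs3, where TGACTCA and TGAGTCA flank the SIE-like site TTTCGGGAA 13 bp from the summit. Over all LIF summits, 23.2% had an AP-1 site.

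A consensus SIE is also present at the Socs3 promoter, but farther from the summit. TTCCAGGAA at 117969239 to 117969247 was centred 146 bp from the promoter summit and 57 bp upstream of the start site of the coding transcript in GENCODE, downstream of the RefSeq start site. It lies within the stretch that the study amplified by ChIP-qPCR with the primers CGCGCACAGCCTTTCAGTG and TTTACCCGGCCAGTACGCC, which match chr11:117969209-117969307, a product of 99 bp. The summit itself was outside this product, 82 bp from its nearer end. By this ChIP-qPCR the study reported Stat3 at the Socs3 promoter after LIF, and no stimulation of binding by peroxide.

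Socs1 (ENSMUSG00000038037, chromosome 16, 10782240 to 10785536, minus strand) encodes the inhibitor best known for restraining interferon signalling. Its summit lay at 10787487, 1951 bp upstream of the single annotated start site, and ranked 632 (score 8.21). The start site nearest to this summit was that of Tnp2, which encodes a protein that packages sperm DNA, at 1173 bp. The sequence is shown because it was the family's window that held neither an SIE of at most 1 mismatch nor an AP-1 site, so that it has no capitals.
Socs1, 1951 bp upstream (chr16:10787407-10787567): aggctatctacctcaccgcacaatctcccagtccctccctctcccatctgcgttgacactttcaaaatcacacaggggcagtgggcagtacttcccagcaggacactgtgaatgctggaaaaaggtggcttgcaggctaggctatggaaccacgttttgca
The closest matches in this window, with 2 mismatches each, were TTCCCAGCA, 15 bp from the summit, and ATGCTGGAA, 35 bp from it. Outside the window, TTCCCAGAA and TTCAGGGAA, each with 1 mismatch, were centred 92 and 118 bp from the summit. Socs1 had 11 consensus SIEs within 50 kb of its start site, the most of the 8 genes, and none of them was under a LIF summit.

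Cish (ENSMUSG00000032578, chromosome 9, 107296026 to 107302784, plus strand) encodes the member that was first described as a cytokine-induced SH2 protein and that binds activated cytokine receptors. Its summit at 107296748 ranked 168 with a score of 19.9, second to Socs3 among the members' highest ranks. It was also the closest to a GENCODE start site, 38 bp downstream of one at 107296710. It lay 89 bp downstream of the RefSeq start site, in a UTR and within an intron of the overlapping predicted gene Gm17040. By RefSeq start sites the Socs3 promoter summit was closer, at 23 bp. A LIF summit within 50 bp of a start site was found at 0.36% of protein-coding genes, and one within 100 bp, as at Cish and Socs3, at 0.542%. The summits were collected by distance, and these limits lie just above the members' own distances, so these shares are a description only.

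Socs2 (ENSMUSG00000020027, chromosome 10, 95385362 to 95417180, minus strand) encodes the member best known for limiting growth hormone signalling. Its summit lay at 95416994 and ranked 727 (score 6.80), below those of Socs1 and Cish. It was 137 bp upstream of the start site at 95416857, which RefSeq also lists, and in an intron of a longer transcript. The annotation gives Socs2 12 start sites over 24.2 kb. A LIF summit within 150 bp of a start site, as at Socs2, Socs3 and Cish, was found at 0.715% of protein-coding genes. This limit also lies just above a member's own distance, so the share is a description only.

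The Cish and Socs2 promoters are shown together because both hold SIE sites in pairs. Each line gives 30 bases of GRCm38 5′ to 3′ in the direction of the gene, on the minus strand for Socs2 and the plus strand for Cish, and capitals mark SIE sites with at most 1 mismatch.
Socs2, between summit and start site (chr10:95416899-95416928): gcggaTTCCTGGAAagTTCCTGGAAagcgg
Cish, at the RefSeq start site (chr9:107296654-107296683): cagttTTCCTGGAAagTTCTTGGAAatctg
Cish, downstream of the summit (chr9:107296762-107296791): ggTTCTAGGAAgatgaggcTTCCGGGAAgg
At Socs2, the consensus SIE TTCCTGGAA occurs 2 times with starts 11 bp apart, 51 and 62 bp upstream of the start site, and the centres are 86 and 75 bp from the summit. At Cish, TTCCTGGAA and TTCTTGGAA also start 11 bp apart and are centred 85 and 74 bp upstream of the summit. TTCTAGGAA and TTCCGGGAA, with starts 17 bp apart, are centred 20 and 37 bp downstream of it. The spacing of the first pair is thus the same in both genes.

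How often SIE sites cluster in the LIF list was counted after the pairs had been seen. At least 2 sites of at most 1 mismatch within 150 bp, whatever their spacing, were found at 220 of the 1088 LIF summits (20.2%). Pairs as close as those at Cish and Socs2 were not counted over the LIF summits. At least 4 were found at 3 summits (0.276%), Cish among them. At least 2 consensus SIEs within 150 bp were found at 11 LIF summits (1.01%), of which Cish and Socs2 are 2. A pair of consensus SIEs with starts at most 30 bp apart, as at Socs2, was in the promoter window of 13 protein-coding genes (0.0593%). The genome held 122 such pairs, and 1 pair can lie in the windows of several genes.

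**Figure D3:**
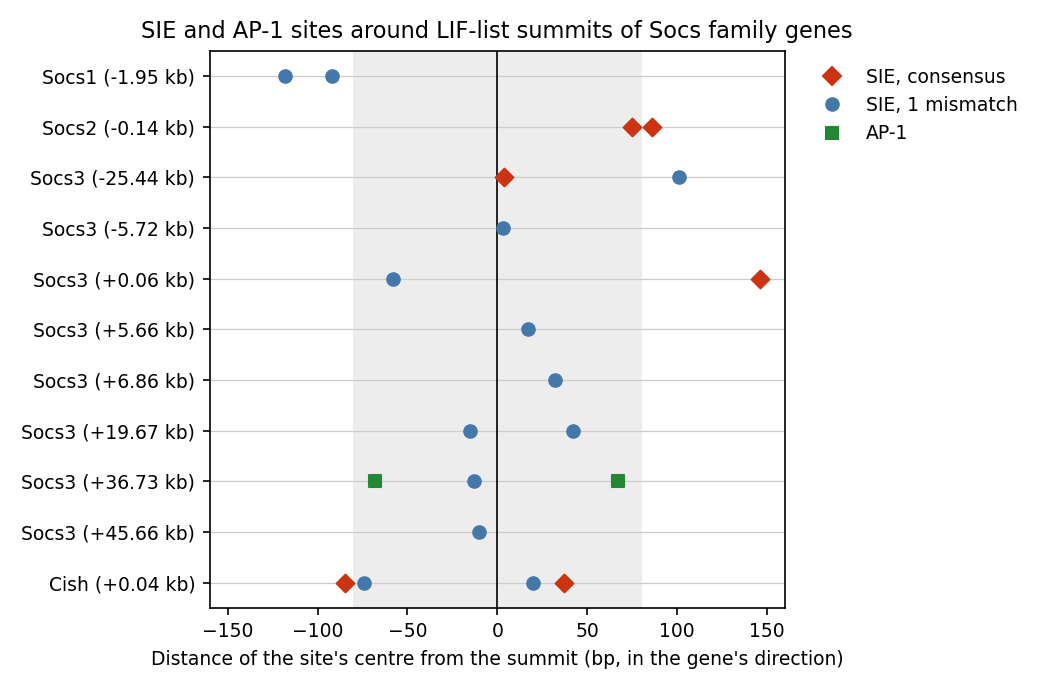
The horizontal axis gives the distance in bp, in the direction of the gene, from each of the 11 summits to the centres of SIE sites (consensus or 1 mismatch) and AP-1 sites within 150 bp, with the searched window of 80 bp shaded and the distance of the summit from a start site beside each name. Cish has 4 SIE sites, Socs2 has 2 consensus sites on 1 side of its summit, and the shaded window of Socs1 is empty.

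Over the 11 summits, 10 (90.9%) had an SIE with at most 1 mismatch within 80 bp, against 66.4% of the other 1077 LIF summits. A consensus SIE was present at 3 (27.3%), against 15.1% of the others. The broader palindrome TTCNNNGAA, which includes every consensus SIE, was present at 5 of the 11 (45.5%) and at 40.7% of the others. As 8 of the 11 summits lie around Socs3, they are not independent. These shares are a description, and a difference from the other summits was not tested. In the 10 windows with a site, the centre of the best site lay 3 to 75 bp from the summit with a median of 16 bp, and within 20 bp in 6. The 11 windows lay largely outside repeats, with 0 to 21.1% of bases repeat-masked.

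**Figure D4:**
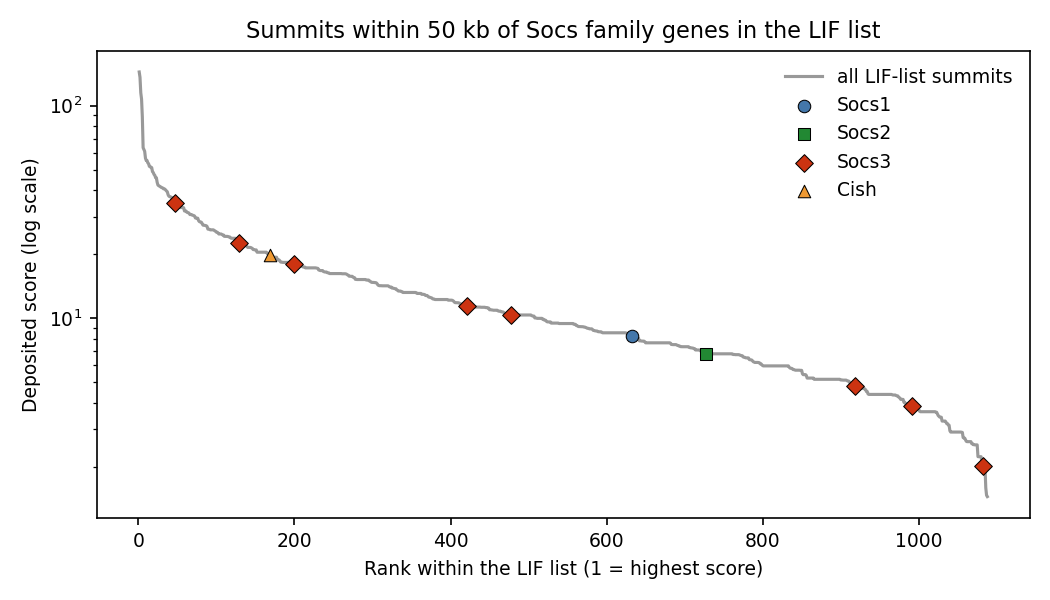
The score of every LIF summit (vertical, log scale) is plotted against its rank in the LIF list (horizontal), and symbols mark the 11 summits of Socs family genes. They spread over the list, from rank 47 at the Socs3 promoter to rank 1083 upstream of Socs3.

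By score, the family's summits were spread through the LIF list and not gathered at its top. Scores at or above the median of the list (9.44) were found for 6 of the 11 summits, 5 at Socs3 and 1 at Cish. The summits of Socs1 and Socs2 were below the median.

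Socs4 (ENSMUSG00000048379, chromosome 14, 47276931 to 47296102, plus strand) and Socs5 (ENSMUSG00000037104, chromosome 17, 87107679 to 87137839, plus strand) encode related members known for restraining signalling by the EGF receptor. The LIF summit nearest to Socs5 was at 87170441, 62.6 kb downstream (rank 525), and no protein-coding gene had a start site nearer to it. The one nearest to Socs4 was at 47370836, 93.7 kb downstream (rank 715), in an intron of Lgals3, which encodes galectin-3. Both lie outside the 50 kb limit.

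Socs7 (ENSMUSG00000038485, chromosome 11, 97362551 to 97398542, plus strand) and Socs6 (ENSMUSG00000056153, chromosome 18, 88665224 to 88927481, minus strand) encode members that are linked to insulin signalling. Socs7 was the member just outside the limit: its nearest LIF summit, at 97309526 (score 11.8, rank 406), lay 53.0 kb upstream and was nearest to Mrpl45, a gene for a mitochondrial ribosomal protein, at 6.19 kb. Socs6 had 9 annotated start sites over 169 kb, more than any other member's span, and yet its nearest LIF summit was 8.50 Mb away, at Pqlc1.

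Members without a LIF summit were not without SIE sites. Within 50 kb of their start sites, the 8 genes had 50 consensus SIEs, of which 31 were at the 4 genes with a LIF summit and 19 at the other 4. The counts per gene were 8 for Socs3, 6 each for Socs2 and Cish, 10 for Socs6, 4 for Socs5, 3 for Socs4 and 2 for Socs7, beside 11 for Socs1. The median protein-coding gene had 3, and Socs6 was searched over 240 kb because its start sites span 169 kb. Of the 50 sites, 3 lay within 80 bp of a LIF summit, and 6 within 200 bp.

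In the promoter windows the 8 genes held 8 consensus SIEs, 3 at Socs2, 2 at Cish and 1 each at Socs3, Socs4 and Socs6. The site at Socs4 was 2.04 kb upstream of a start site, and that at Socs6 was 2.55 kb downstream of the nearest start site and less than 5 kb upstream of another. Neither was near a called LIF summit. Of the 8, 2 lay within 80 bp of a LIF summit, 1 at Socs2 and 1 at Cish. Among all protein-coding genes, 25.9% had a consensus SIE in the promoter window and 1% of these genes had such a site under a LIF summit. Counted by site, 54 of the 6707 consensus SIEs in these windows (0.805%) were under a LIF summit. Over the whole genome, 170 of 69398 consensus SIEs (0.245%) were under a LIF summit.

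The RefSeq table of promoters (250 bases before to 50 after a start site, GRCm38.p6) held 4 of the 8 genes, Cish, Socs1, Socs3 and Socs4. The consensus SIE was present in 1.15% of its 32851 promoters and in 1 of these 4, that of Cish, centred 4 bp downstream of the start site. With at most 1 mismatch, 17.8% of all promoters had a site, as did those of Cish, Socs1 and Socs3 but not that of Socs4. AP-1 sites were in 7.81% of all promoters and in none of the 4.

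Genes that work with or beside the family were counted in the same way, in lists drawn up with earlier results of these data known. Of 6 genes for partners of the SOCS box in ubiquitin ligases, 1 had a LIF summit within 50 kb, Rbx1, a RING subunit, with a summit 258 bp upstream of a start site (rank 920). Of 27 other genes whose products have a SOCS box, 2 had one. They were Spsb1, 176 bp upstream (rank 140), and Asb6, 45.7 kb upstream. Of 13 other inhibitors of Jak-Stat signalling, which include the Pias genes and phosphatases, 1 had one, the phosphatase gene Ptpn1, 6.70 kb upstream (rank 186), and none had one in the promoter window. Ptpn1 and Asb6 were named after their values were seen. These shares of 16.7%, 7.41% and 7.69% stand beside 7.38% of protein-coding genes and 50% of the family.

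A further list held 7 genes linked to cytokine signalling, transcription regulators among them, and is not a list of inhibitors like the Socs family. Of these, 7 had a LIF summit within 50 kb and 5 had one in the promoter window, beside 7.38% and 1.62% of protein-coding genes. As these genes were listed with earlier results known, the counts describe the list and support nothing about it. Bcl3, an atypical member of the IκB family, had 2 promoter summits, of ranks 18 and 172. Cebpd, a C/EBP transcription factor of the acute phase response, had one 119 bp upstream of a start site (rank 119), and Nfkbiz, another IκB relative, one 106 bp upstream (rank 168). Zfp36, whose product destabilises cytokine mRNAs, had one 987 bp upstream (rank 280), and Bcl6, a transcriptional repressor, one 274 bp downstream (rank 790). The remaining genes, Ier3 and Cebpb, had summits 8.28 kb upstream and 24.9 kb downstream, and were named after these values were seen. No gene of these 4 gene lists had a summit within 50 kb in the summit lists other than LIF, where 0.41 to 1.15% of protein-coding genes had one, so that these counts of 0 do not set the genes apart.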

How the data were processed

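Stat3 ChIP-seq was carried out with 2 replicates in each of 5 groups of MEFs. The authors sequenced the precipitated DNA, called peaks on both replicates together and deposited 1 list of summits per group in mm10 coordinates. The study describes the basal and LIF peaks of -/-WT MEFs as exceeding IgG controls by more than 2-fold in read depth. The submitters' processing notes name HISAT2, Picard and MACS2, without versions. Beside its position, every summit has a score as deposited by the authors. MACS2 writes -log10 of a p or of a q value there, depending on its version, so that the unit is not known and scores were used only for ranks within a list. The treatment of reads that map to several positions is not given in the sources used here, and the lists hold no depth. Input DNA and IgG libraries, 1 of each and both from -/-WT MEFs, were not analysed here. No such library from -/-C3S MEFs is among the samples.

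Distances were measured from summits to the start sites of all transcripts in GENCODE M21 on GRCm38 (patch release 6), and RefSeq curated start sites are given beside them. Both strands of the 161 bp around a summit (80 bp either side) were searched for motifs, and a site was counted only where it lay wholly within that window. The repeat-masked share is the share of lower-case bases in the reference. Chromosomes 1 to 19, X and Y were searched for SIEs. Sequences are from the RefSeq genome (GRCm38.p6). Primers are those of the study, placed by exact match. No interval is given for shares of members or of their summits, as the members are a fixed family. No test was run, since each group is 1 pooled list. Shares of all genes stand beside the counts of members.

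The members and gene lists were chosen with earlier results of these data known. Genes named are the 8 members, the genes nearest to their summits and the listed pathway genes with a LIF summit in the promoter window; others are marked as named after their values were seen. A comparison of the members' proteins was planned and not run, as no protein table was used here. Socs2, Socs5, Socs6 and Socs7 had no entry in the promoter table used. The distance and motif steps were tested on simulated data. Simulated summits were placed either inside or outside the window. For the 50 kb rule 200 of 200 were called correctly as inside or outside, and for the promoter window 200 of 200. Planted SIEs, some of them with 1 mismatch, were found in 200 of 200 random sequences. Alternatives were distances of 10, 25 and 100 kb, promoters of 1 or 10 kb either side, the gene's own 5′ end as the only start site, the higher-scoring summits alone, merging of summits within 500 bp, other forms of the SIE, motif windows of 40 or 150 bp, and other distances for shared summits. Python 3.11.15, NumPy 2.4.6, SciPy 1.17.1, pysam 0.24.0 and matplotlib 3.10.9 were used.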

Additional observations from a re-analysis of the deposited data

How the results depend on the processing

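The count of 4 genes with a LIF summit was the same at 10, 25 and 50 kb, with summits merged within 500 bp, and with the gene's own 5′ end as the only start site. At 100 kb it was 7 of 8 genes, adding Socs4, Socs5 and Socs7, while the share of all protein-coding genes was 12.4%. With only the summits at or above the median score it was 2 (Socs3 and Cish), because the summits of Socs1 and Socs2 score below the median. The 11 summits became 7 at 10 kb and 6 among the higher-scoring ones, all losses at 10 kb being at Socs3. The 4 genes with a promoter summit became 3 with 1 kb either side, without Socs1, and 2 with the gene's own 5′ end as the only start site (Socs1 and Socs2), because the Socs3 and Cish summits lie more than 0.5 kb downstream of that end. The 3 summits with a consensus SIE became 10 with 1 mismatch allowed, 5 with TTCNNNGAA and 1 with a 40 bp window, that in the Pgs1 intron. The 3 SIEs under a LIF summit became 6 when 200 bp counted as under. In the other 4 lists the counts for the family were 0 under every alternative run, and no summit of the family was shared with another list at 100, 200 or 500 bp.

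No paired analysis was possible because the replicates of each group were pooled before peaks were called, and for the same reason leaving out a replicate was not an option. A called summit depends on depth, which the lists do not hold, and a gene without a summit has no called peak. The LIF list is the longest and the LIF libraries had more unique reads by the study's account. LIF and read number therefore cannot be told apart in the contrast between the LIF list and the others. Distance to a start site does not show which gene a bound site acts on.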
